A study of Mus musculus with 2 samples.

Results

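Of the 99782 annotated peaks in the anti-FLAG library, 6061 had their region of maximum signal 1 to 1000 bp downstream of a transcription start site (TSS), and these are the peaks described here. They were chosen from the authors' annotation table as the peaks of the class of promoters within 1 kb whose signed distance to the TSS ran from 1 to 1000 bp. They made up 6.07% of the annotated peaks (95% Wilson interval 5.93 to 6.22) and 39.7% of the promoter peaks within 1 kb. The other promoter peaks within 1 kb were 6200 upstream of the TSS, at 1 to 1000 bp, and 3021 whose region of maximum signal lay on it. All of them came from hippocampal tissue of CamK-PARIS mice on the C57BL/6J strain, given no treatment. An anti-FLAG antibody, which binds a peptide tag, was used there to capture chromatin bound by PARIS, the product of Zfp746. PARIS is a KRAB zinc-finger protein known to repress transcription. The peaks were called against 1 IgG library of the same genotype. The labels name neither the age nor the number of the animals, and the promoter that drives PARIS is known here only by the name CamK. No group without CamK-PARIS was analysed here, so the controls carry it too. Each antibody had 1 library, so nothing below could be tested against replicate error. Every comparison is between peaks or genes within the anti-FLAG library, with 95% intervals that cover counting error alone. Sequencing depth is unknown from these files.

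In CUT&Tag an antibody directs a tethered Tn5 transposase to chromatin, and the enzyme cuts and tags the DNA nearby. The stretch just downstream of a TSS holds the first exon with its 5′ UTR, often the start of the first intron, the place where RNA polymerase II pauses, and the first nucleosome of the gene body. In CpG islands, where CpG dinucleotides have escaped depletion, promoter sequence features run on into the transcribed side. Most motifs of promoter-binding factors lie upstream of the TSS, while YY1, a zinc-finger factor, is known for sites at or just past it.

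The highest members differed in sequence, as 5 windows of 100 bases centred on the region of maximum signal show. They are from the members of highest maximum signal whose window overlaps no UTR annotated in GENCODE M21, and all 5 lay in the first intron of the assigned transcript. Each is printed from 5′ to 3′ on the strand of the assigned gene, from the RefSeq copy of GRCm38.p6 (mm10), with matches to any of the 12 motifs searched below in capitals.
Myo18a (chr11:77850900-77850999, plus strand): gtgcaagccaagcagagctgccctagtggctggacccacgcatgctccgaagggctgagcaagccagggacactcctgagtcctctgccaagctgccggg
Sp3os (chr2:72979720-72979819, plus strand): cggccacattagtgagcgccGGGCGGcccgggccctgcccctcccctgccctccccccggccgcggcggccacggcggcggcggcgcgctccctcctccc
Lrrc4b (chr7:44429687-44429786, plus strand): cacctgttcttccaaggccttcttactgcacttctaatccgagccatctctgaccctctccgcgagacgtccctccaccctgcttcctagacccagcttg
Immt (chr6:71831639-71831738, plus strand): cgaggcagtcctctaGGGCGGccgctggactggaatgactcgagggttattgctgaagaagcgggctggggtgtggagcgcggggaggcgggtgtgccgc
Fcho1 (chr8:71711686-71711785, minus strand): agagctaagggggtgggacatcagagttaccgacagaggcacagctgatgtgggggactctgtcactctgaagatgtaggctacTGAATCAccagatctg
Among these 5, GC content ran from 53% at Fcho1, which codes for an endocytosis protein, to 85% at Sp3os, an antisense transcript next to the gene of the transcription factor Sp3. The Sp3os window held 15 CpG dinucleotides and the Fcho1 window 1. Immt, whose product shapes the inner mitochondrial membrane, had a GC box (GGGCGG) and 9 CpG dinucleotides in its window.

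Sites for 4 motifs are printed as 30 bases each, because they carry the sequence contrasts given further on. The first 4 are the highest members with the YY1 core ATGGCGGC, which reads GCCGCCAT where it lies on the other strand.
Pcnt (chr10:76442385-76442414, minus strand): acttcctaggcGCCGCCATcttgaatccag
Tmem170 (chr8:111876628-111876657, minus strand): gcgggcggtggATGGCGGCgggatggagcg
Gpatch2l (chr12:86241946-86241975, plus strand): tgaggggaaggATGGCGGCgaggctgggcc
Zfp638 (chr6:83914600-83914629, plus strand): ctgcgtacaagATGGCGGCggcggggcggg
The next 3 are from the highest members with the insulin response sequence TATTTTT or TATTTTG, the element that PARIS is known to bind, which reads AAAAATA or CAAAATA on the other strand.
Rai1 (chr11:60176032-60176061, plus strand): gggggcaggttAAAAATAaccctcttcggc
Sgsm2 (chr11:74896261-74896290, minus strand): taagactcagatTATTTTTgcccttttgag
Ppp1r1a (chr15:103537078-103537107, minus strand): cctggcctggccTATTTTTagctctgagca
The following pair has the CCAAT box, which reads ATTGG on the other strand.
Slc8a2 (chr7:16129758-16129787, plus strand): acgcctcctcatATTGGctcctccctcggc
Immt (chr6:71831754-71831783, plus strand): gggacctggtatCCAATcagtacctcctta
The last pair has the NRF1 motif, a GC-rich palindrome in all but its centre.
Ing2 (chr8:47675176-47675205, minus strand): agtgagtgctGCGCAGGCGCagatgcggtc
Pigp (chr16:94371456-94371485, minus strand): caggggcagcGCGCACGCGCgtcaccgcaa
In Slc8a2 and Ing2 the site lay upstream of the assigned TSS, at -54 and -32 bp, although the region of maximum signal was downstream, since the searched window of 200 bases reaches over the TSS. At Immt and Pigp the site lay 309 and 372 bp downstream.

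Downstream peaks were fewer than upstream peaks close to the TSS and more numerous farther away. Over the whole kilobase the sides were close to equal, with 49.4% of the off-TSS peaks downstream (48.5 to 50.3). Within 200 bp the downstream share was 42.5% (41.1 to 43.9), with 2125 peaks against 2877 upstream. From 201 to 1000 bp it was 54.2% (53.1 to 55.4), with 3936 against 3323. The number of downstream peaks fell from 1313 in the 100 bp next to the TSS to 812, 692 and 589 in the following steps of 100 bp. It was 401 between 901 and 1000 bp, against 273 upstream. The median distance was 336 bp, with quartiles of 124 and 621 bp. The distance is taken from the nearer edge of the region of maximum signal, and the middle of that region lay past 1000 bp in 6.67% of members. Peaks of constant height, whose total signal was at least 0.99 of maximum signal times width, were counted separately because the coverage in them has no summit. Their width stopped at 700 bp on both sides, while the other peaks reached 3762 bp downstream and 4738 bp upstream. What sets this limit was not tested, and their maximum signal is the height of a flat stretch. The same change of sides with distance appeared in both shapes. Between 1 and 100 bp the downstream share was 44.0% among constant-height peaks (40.8 to 47.2) and 40.7% among the others (38.7 to 42.8), and between 901 and 1000 bp it was 59.9% (54.8 to 64.8) and 59.02% (53.4 to 64.4).

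**Figure D1:**
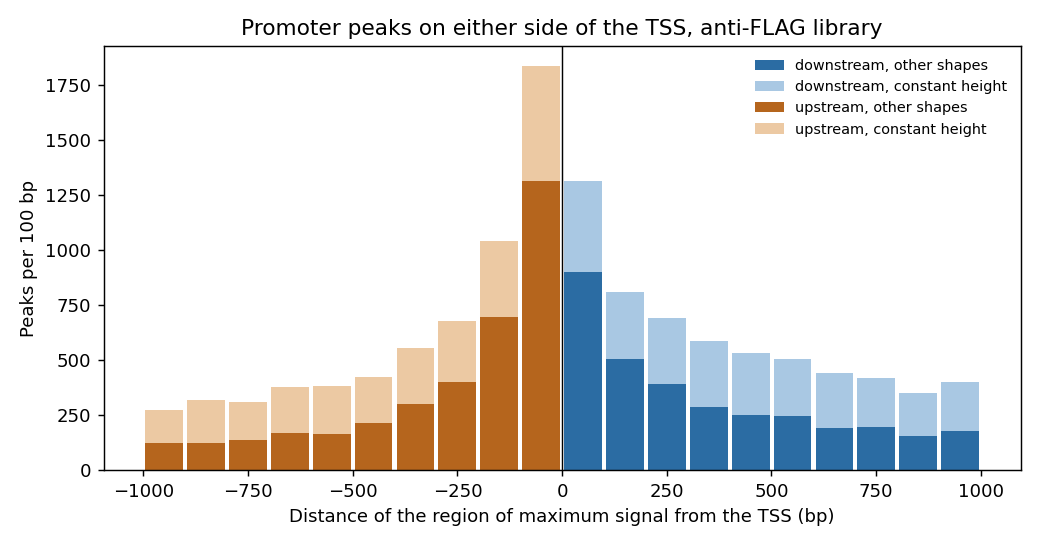
Number of promoter peaks per 100 bp (vertical axis) by the distance of the region of maximum signal from the TSS in bp (horizontal axis, negative upstream), split by peak shape. The bars next to the TSS hold 1313 downstream and 1836 upstream peaks, and the bars at 901 to 1000 bp hold 401 and 273.

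Many members did not lie at the outermost start of their gene. The assigned transcript was in GENCODE M21 for 6007 members (99.1%), with the same start in all 6007. Only 40.9% of these (39.6 to 42.1) were at the gene's 5′-most annotated TSS, taken within 100 bp, against 56.6% of upstream peaks (55.3 to 57.8) and 52.2% of peaks on the TSS (50.4 to 54.0). For 38.2% (36.9 to 39.4) the assigned TSS was more than 1000 bp inside the gene. Around 5′-most TSSs the downstream share of off-TSS peaks was 41.4% (40.2 to 42.7), and around all other TSSs it was 57.1% (55.9 to 58.3). The assigned transcript was of protein-coding type for 54.9% of members, a retained-intron transcript for 16.8% and a processed transcript for 15.6%, so the promoter class includes starts of transcripts that code for no protein. At 5′-most TSSs 38.9% of members had a constant height (37.0 to 40.9) and mean GC was 59.6% ± 10.6 (SD over windows, n = 2455). At other TSSs these were 49.8% (48.2 to 51.4) and 55.02% ± 9.97 (n = 3552).

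Within the assigned transcript, the first intron was the usual place. The centre of the region was in the first intron for 59.97% of members (58.7 to 61.2) and in the first exon for 27.4% (26.3 to 28.5). The first-exon members comprised 808 in the 5′ UTR, 357 in coding sequence, 485 in transcripts with no coding sequence and 11 in the 3′ UTR of short transcripts. The remainder were in later introns (312), in later exons (236), past the end of the transcript (163) or on a transcript absent from GENCODE M21 (54). The first-exon share went from 69.2% at 1 to 100 bp to 37.2% at 101 to 200 bp and 4.49% at 901 to 1000 bp, and the median first exon of the transcripts was 171 bp long. Members in the 5′ UTR were higher and richer in GC than those in the first intron. Their maximum signal had a median of 152 (145 to 160), their mean GC was 64.5% ± 9.91 (SD, n = 808) and 19.7% had a constant height. In the first intron the median was 111 (108 to 113), GC 54.7% ± 10.03 (SD, n = 3635) and 49.6% had a constant height. Members in the coding part of the first exon had a median of 122 (114 to 128) and a mean GC of 65.2% ± 9.07 (SD, n = 357). Protein-coding genes took 92.7% of all members. Genes of miRNAs took 76 members, with a median maximum signal of 108.5 (98 to 133) and a constant height in 56.6%.

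Downstream peaks were higher than the list as a whole and slightly lower than upstream peaks. Their maximum signal, the authors' whole-number coverage at the highest point, had a median of 116 (114 to 118) and quartiles of 79 and 166, and spanned 6 to 1478. The medians were 121 (119 to 123) for upstream peaks, 108 (106 to 110) for peaks on the TSS and 101 for all annotated peaks. The ratio of the downstream to the upstream median was 0.959 (0.927 to 0.992). Its interval reached past 1 at 5′-most TSSs alone (0.976, 0.915 to 1.02) and for total signal divided by width (0.983, 0.948 to 1.01). The top 10% of the list by maximum signal, taken at or above its 90th percentile, held 10.1% of all annotated peaks, ties included, and 1192 members (19.7%, 18.7 to 20.7). The share was 5.32 percentage points below that of upstream peaks (the difference ran from -6.79 to -3.84) and 3.08 points above that of peaks on the TSS (1.40 to 4.72). Constant height was found in 63.3% of all annotated peaks and in 45.4% of members (44.2 to 46.7). That was 4.15 points more than upstream (2.39 to 5.90) and 3.77 points less than on the TSS (difference of -3.77, from -5.94 to -1.59). The median width was 478 bp (465 to 490), against 482 bp upstream and 492 bp on the TSS. The authors' total signal had a median of 32148 (31337 to 32943), against 33493 (32432 to 34526) upstream.

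Members fell into peaks that reached back over their TSS and peaks that lay clear of it. Of the members, 1766 (29.1%, 28.0 to 30.3) covered the assigned TSS. They had a median maximum signal of 176 (169 to 181) and a median width of 803 bp, and 10 of them had a constant height. The 4295 members clear of the TSS had a median maximum signal of 103 (101 to 105) and a width of 352 bp, and 63.9% had a constant height. These contrasts follow in part from the distance rule. In a constant-height peak the region of maximum signal fills nearly the whole peak. If it covers its TSS it therefore usually counts as lying on the TSS, and is no member. A member that covers its TSS must also be wider than its distance. Covering the TSS was less frequent than among upstream peaks (35.1%), with a difference of -5.94 points (-7.59 to -4.29). The share covering the TSS was 63.4% at 1 to 100 bp, 12.6% at 401 to 500 bp and 2.74% at 901 to 1000 bp. Median height fell over the same steps from 133 (129 to 140) to 110 (104 to 117) and 107 (103 to 113). Upstream peaks covered the TSS in 63.7% at 1 to 100 bp and in 15.8% at 401 to 500 bp. Another gene's TSS lay under 5.35% of members (4.81 to 5.94), on the opposite strand in 283 of these 324.

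**Figure D2:**
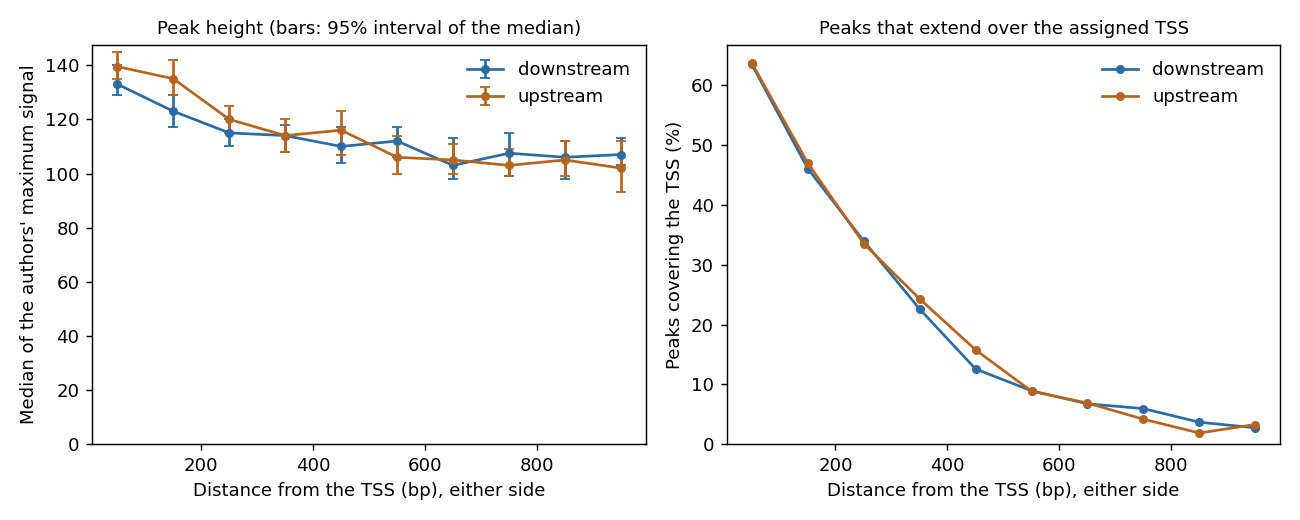
Median of the authors' maximum signal (left, bars show the 95% interval of the median) and percentage of peaks that extend over the assigned TSS (right), by distance from the TSS in bp on either side. Downstream medians go from 133 next to the TSS to 107 at 901 to 1000 bp, and the TSS is covered by 63.4% of downstream and 63.7% of upstream peaks next to it.

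At the far limit of the distance rule 5 members lay at 1000 bp, assigned to Elovl6, Myo1c, Itfg2, Rnft2 and Krt77, with maximum signals of 57, 82, 86, 103 and 132. Just outside it, 5 peaks at 1001 bp belonged to Htr3a, Neurod1, Csmd3, Pacs1 and Rcan1 and had 22, 112, 133, 143 and 162. The 45 members at 991 to 1000 bp had a median of 103, and the 34 peaks at 1001 to 1010 bp had 98.5. At the near limit the 211 members at 1 to 10 bp had a median of 142, against 108 for the peaks on the TSS. A region counts as on the TSS where any part of it touches the TSS, so broad regions fall there more readily. The median region was 232 bp wide in peaks on the TSS and 136 bp in members. How far this shapes the contrasts with those peaks in height and constant height was not tested.

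The sequence under the members was GC-rich, and it carried fewer promoter motifs than the sequence under upstream peaks. In windows of 200 bases around the centre of the highest region the mean GC was 56.9% ± 10.5 (SD over windows, n = 6059), against 55.8% ± 10.5 upstream (n = 6198), a difference of 1.07 points (0.696 to 1.44). Peaks on the TSS had 61.9% ± 10.1. The window mirrored across the TSS of the same member had 53.5% ± 11.3, which was 3.42 points lower than the member's own (3.03 to 3.81). All protein-coding gene starts show this slope: 250 bp downstream of 21852 gene starts the mean GC was 58.01%, and 250 bp upstream of 21844 it was 50.01%. Relative to these reference positions upstream peaks were 5.83 points richer in GC (5.53 to 6.13), while members were 1.10 points poorer (difference of -1.10, from -1.42 to -0.784). The reference lies at 1 distance, while members are spread over the kilobase: their mean GC was 60.4% at 101 to 200 bp, 58.97% at 201 to 300 bp and 51.7% at 901 to 1000 bp, above and then below the reference. It also holds outermost gene starts only. Members at 5′-most TSSs had a mean GC of 59.6%, above the reference, and members at other TSSs had 55.02%, below it. Upstream peaks were not split in this way. Windows with at least 50% GC and an observed over expected CpG ratio of at least 0.6 made up 31.4% of members (30.2 to 32.6), 31.6% of upstream peaks (30.5 to 32.8) and 57.8% of peaks on the TSS (56.03 to 59.5). Among members they were 51.01% within 200 bp and 20.8% farther away.

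Of 12 motifs searched on both strands of these windows, 10 were less frequent in members than in upstream peaks, with an interval of the difference below 0. The intervals are not adjusted for the 12 comparisons. Members were also less often at a 5′-most TSS than upstream peaks (40.9% against 56.6%). How far this shapes the motif differences was not tested. Of the 10, the CCAAT box and the NRF1 motif kept an interval below 0 both within 200 bp and from 201 to 1000 bp, and in both peak shapes. From 201 to 1000 bp TATAAA and the CTCF core also did, while those of the cyclic AMP response element, Ets, E-box, AP-1 and ZNF143 crossed 0. Within 200 bp those of Ets, TATAAA and CTCF crossed 0. Among constant-height peaks all but CCAAT and NRF1 crossed 0. The CCAAT box, bound by NF-Y, was in 17.6% of members and 24.9% of upstream peaks, a difference of -7.27 points (-8.71 to -5.82). The GC box GGGCGG, bound by Sp factors, was in 24.1% and 28.8% (difference -4.61, from -6.16 to -3.04). The NRF1 motif, of a factor that drives nuclear genes of mitochondrial function, was in 1.09% and 2.73% (-1.64, from -2.13 to -1.16). The cyclic AMP response element TGACGTCA, bound by CREB, was in 0.380% and 0.952% (-0.572, from -0.874 to -0.287). The E-box CACGTG was in 3.86% and 5.15%, the Ets core CCGGAAG in 3.09% and 3.79%, AP-1 (TGANTCA) in 5.35% and 6.26%, TATAAA in 5.001% and 5.81%, the ZNF143 core ACTACAA in 1.37% and 1.89%, and the CTCF core in 5.93% and 6.92%. Matches of different motifs may overlap. Only the YY1 core was more frequent downstream, in 1.20% of members (73 windows) against 0.742% upstream, a difference of 0.463 points (0.115 to 0.821).

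Within 200 bp of the TSS the CCAAT box was in 16.7% of members and 29.3% of upstream peaks (-12.6 points, from -14.9 to -10.3), and the YY1 core in 2.45% and 1.29% (1.16 points, 0.410 to 1.99). From 201 to 1000 bp the GC box was more frequent in members, at 17.7% against 15.2% (2.54 points, 0.827 to 4.24). For the YY1 core the interval then crossed 0 (0.263 points, from -0.0425 to 0.572). It also crossed 0 among constant-height peaks (0.347 points, from -0.00815 to 0.730). Gene starts in general differed between the sides too, in the same direction for some motifs and the opposite one for others. In the reference windows 250 bp downstream and 250 bp upstream of all protein-coding gene starts the CCAAT box was in 17.2% and 23.9%, and the YY1 core in 1.57% and 0.581%. The GC box was there in 27.96% and 17.1%, Ets in 3.85% and 2.64% and CTCF in 6.19% and 4.16%, higher downstream, where members were lower than upstream peaks. Set against the reference window of their own side, members held the YY1 core less often, by -0.365 points (-0.665 to -0.0200), with 2.45% within 200 bp, above the reference of 1.57%, and 0.534% farther away. They held the NRF1 motif at 1.09% against 1.20% and the cyclic AMP response element at 0.380% against 0.284%, with intervals of the difference across 0. Over the whole kilobase upstream peaks held both more often than theirs, at 2.73% against 1.09% and 0.952% against 0.362%. The reference lies at 1 distance and at outermost gene starts only, and these shares changed with distance. Motif shares were not split by kind of TSS. Upstream peaks held NRF1 in 5.18% within 200 bp and 0.602% farther away, and the response element in 1.60% and 0.391%. For members these were 2.64% and 0.254%, and 0.565% and 0.280%. Members held AP-1 at 5.35% against 3.01% in the reference (2.34 points, 1.75 to 2.97). The share was 3.25% within 200 bp (2.57 to 4.09), an interval that includes the reference, and 6.48% farther away (5.75 to 7.29). They held the E-box at 3.86% against 2.92% (0.942 points, 0.430 to 1.501). Upstream peaks also held both motifs more often than the reference of their own side. For AP-1 it was 6.26% against 4.73% (1.53 points, 0.881 to 2.21). For the E-box it was 5.15% against 3.52% (1.63 points, 1.05 to 2.26).

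The insulin response sequence was in 5.91% of members (358 windows) and 6.03% of upstream peaks, a difference of -0.126 points (-0.966 to 0.715). The reference windows held it in 5.71% downstream and 10.6% upstream. Members differed from theirs by 0.197 points (-0.451 to 0.888) and upstream peaks by -4.56 points (-5.27 to -3.82). The reference lies at 1 distance and at outermost gene starts only. Within 200 bp members held the sequence in 3.15% (2.49 to 3.98), below the reference, and from 201 to 1000 bp in 7.40% (6.62 to 8.26), above it. For upstream peaks the shares were 3.75% and 8.01%, both below their reference. Peaks on the TSS held it in 3.14%, and the mirrored windows upstream of the members' own TSSs in 8.20%. Among members of constant height it was in 7.99%, where mean GC was 52.9%, and among the others in 4.17%, where GC was 60.2%.

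**Figure D3:**
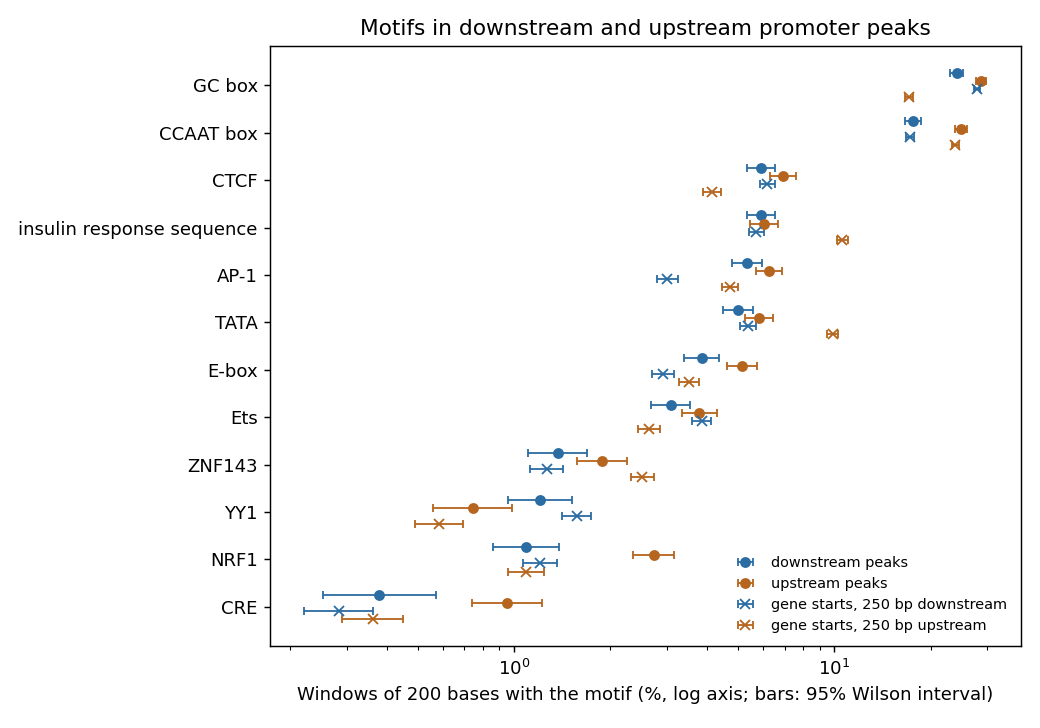
Percentage of 200-base windows with each of 12 motifs (log axis, bars show 95% Wilson intervals) in downstream peaks, upstream peaks and reference windows 250 bp to either side of protein-coding gene starts. The CCAAT box is in 17.6% of downstream and 24.9% of upstream peaks, and YY1 is the motif with the downstream peaks above the upstream ones, at 1.20% and 0.742%.

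The 10 members of highest maximum signal and the 10 of highest total signal came to 17 peaks. Of these, 16 extended over their own TSS, 10 had the region of maximum signal in the first intron and 6 in the first exon, and none of the 17 had a constant height. The absence of constant height follows from the choice, since such members reached at most 234 in maximum and 74042 in total signal. The highest was at Slc8a2, which encodes a sodium-calcium exchanger of neurons. Its peak (chromosome 7, 16129124 to 16130664) reached 1478, the second value of the whole list, 9 bp downstream of the TSS in the 5′ UTR. The next, at Zfp521 (a zinc-finger transcription factor), reached 854. Myo18a, an unconventional myosin, had a peak of 784 at 290 bp (chromosome 11, 77850292 to 77851748), at an internal TSS 87410 bp past the gene's 5′-most one. Dnpep, an aspartyl aminopeptidase, reached 765 at 133 bp, and Trim9, a ubiquitin ligase of neurons, reached 746 at 2 bp. The peak of Sp3os (chromosome 2, 72978658 to 72981097) reached 729 and also covered the TSS of Sp3 on the opposite strand. Sp4, a related factor of neurons, had 690 at 5 bp. Lrrc4b, a postsynaptic adhesion protein, had the one named peak clear of its TSS: it began 129 bp downstream and had its highest point of 692 at 716 bp (chromosome 7, 44429147 to 44431325). Jph4, a junctophilin that ties the endoplasmic reticulum to the plasma membrane, had 690 at 414 bp, and Capzb, a subunit of the actin capping protein, 680 at 60 bp.

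By total signal the list was led by 4930570G19Rik, a long noncoding RNA, with 767929 over 3270 bp (chromosome 3, 156560373 to 156563642). That peak also covered a TSS of Negr1, an adhesion molecule, on the other strand, so its place downstream holds for the noncoding transcript only. Slc8a2 (742571), Sp3os (677822) and Jph4 (656776) followed. Dmtn, an actin-bundling protein, had 620366 at a TSS 7049 bp inside the gene. Trim8, a ubiquitin ligase, had 594977 over 3762 bp, the widest member. Hrk, a proapoptotic BH3-only protein, had 548279 with the highest point at 712 bp, and Gpr162, an orphan receptor, had 548153 with it at 657 bp. Zfp827, a zinc-finger gene, and E2f3, a cell-cycle transcription factor, had 546472 and 523877, with the highest points 946 and 651 bp downstream. The last lay in coding sequence of the first exon.

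**Figure D4:**
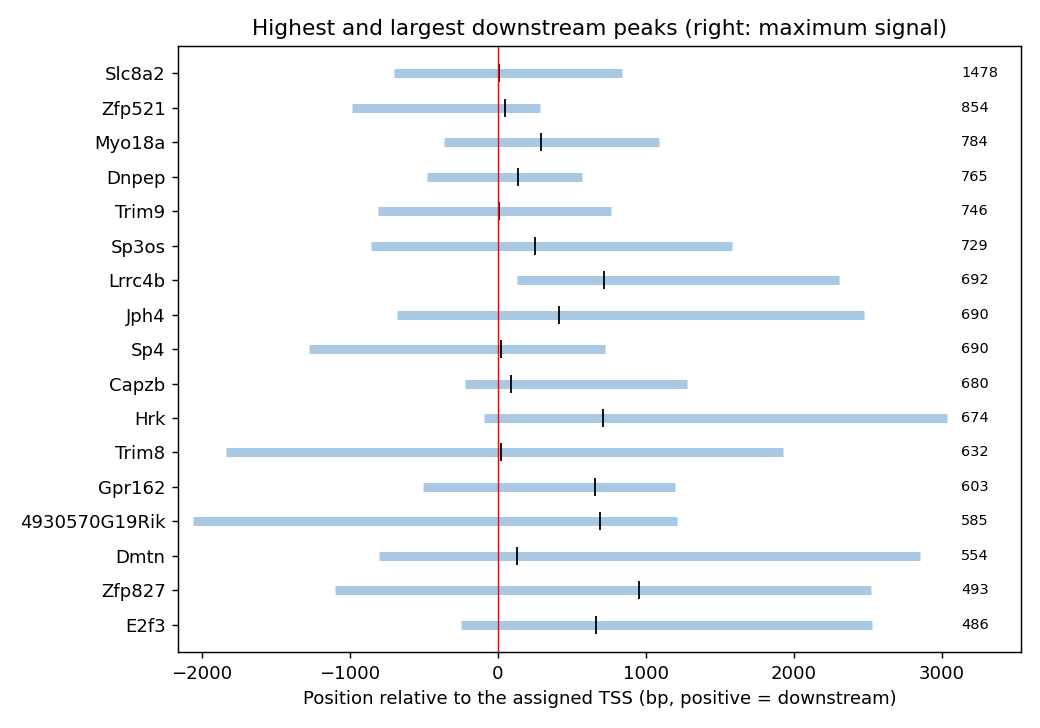
Extent of the 17 downstream peaks of highest maximum or total signal (bars) and the centre of their highest region (ticks), relative to the assigned TSS in bp with positive values downstream, with the maximum signal at the right. The bar of Lrrc4b starts 129 bp downstream of the TSS, and the bars of the other 16 cross it.

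Members were assigned to 5091 gene symbols and to 5826 transcripts. In GENCODE M21, 4693 of 21853 protein-coding genes had at least 1 member (21.5%, 20.9 to 22.02), close to the 21.8% with an upstream peak. Of these 4693 genes, 34.8% (33.4 to 36.2) also had an upstream peak at one of their TSSs, and 54.8% had neither an upstream peak nor one on a TSS. Peaks on both sides of the same TSS were found at 437 transcripts, 7.50% of those with a member and 7.35% of those with an upstream peak. The shares over all annotated transcripts and genes, to set beside these and the 54.8%, were not computed. At 249 of these 437 neither peak covered the TSS. Their regions of maximum signal were then a median of 780 bp apart (quartiles 540 and 1048 bp), and the downstream peak was the higher in 123 of 249 (49.4%, 43.2 to 55.6). Genes with more annotated TSSs had a member more often, from 9.14% of genes with 1 TSS (8.36 to 9.99) to 37.6% of genes with at least 7 (36.2 to 39.03). On chromosome X 13.3% of protein-coding genes had a member (11.3 to 15.6), against 22.04% on the autosomes (21.5 to 22.6), and no member lay on chromosome Y. Upstream peaks were likewise at 13.7% of the genes on chromosome X (11.7 to 16.0), against 21.8% of all protein-coding genes.

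More than 1 member was found at 782 genes, and at 601 of these (76.9%, 73.8 to 79.7) the members lay at different TSSs. How this share depends on the number of TSSs per gene was not tested. Cux2, a homeobox factor of upper-layer cortical neurons, had the most with 6, each at its own TSS, spread over 184784 bp and with maximum signals from 33 to 238. Another 8 genes had 5. Among them were Rbfox3, which encodes the neuronal nuclear protein NeuN, over 341394 bp (75 to 268), Itpk1, an inositol phosphate kinase, over 110884 bp (37 to 245), and Csnk1e, a casein kinase of the circadian clock, over 22894 bp (90 to 226). In Ltbp3, which binds latent TGF-beta, and in Ttyh1, a membrane protein of neural cells, they spanned 10455 and 11124 bp. Psd, Stat6 and Zmiz2 completed the 8, with highest values of 233, 329 and 156. Of the 5 members, 4 had a constant height at Csnk1e and at Stat6, and 3 at Itpk1 and at Zmiz2. It was 2 at Rbfox3 and at Ltbp3, 1 at Psd and 0 at Ttyh1, and 2 of 6 at Cux2.

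Gene lists were compared with the background of 21.5% of protein-coding genes. Of the 9 genes of the excitatory neuron list 7 had a member (77.8%, 45.3 to 93.7), of 26 glutamate receptor genes 13 (50%, 32.1 to 67.9), and of 22 immediate early genes 10 (45.5%, 26.9 to 65.3). The intervals of these 3 lists lay above 21.5%. They are not adjusted for the 13 lists, which were chosen with earlier results of these data known. The first list includes Rbfox3, which marks neurons in general. Upstream peaks, found at 21.8% of protein-coding genes, were at 66.7%, 46.2% and 40.9% of the same lists, and whether the sides differ was not tested. Protein-coding genes with the same numbers of TSSs had a member in 20.2% for the excitatory markers, 26.04% for the receptors and 18.8% for the immediate early genes. The synaptic vesicle release genes (9 of 25, with an upstream peak at 17) and the markers of interneurons (5 of 11), oligodendrocytes (3 of 11) and microglia (2 of 9) had intervals that included 21.5%. Among the 9 astrocyte and 6 endothelial markers 0 had a member, which allows shares of up to 33.3% and 50% at 3 counts of the total. Upstream peaks were at 2 of the 9 (22.2%) and 2 of the 6 (33.3%). Housekeeping lists were near the background or below it, with 15 of 84 respiratory chain genes (17.9%, 11.1 to 27.4), 18 of 85 cytosolic ribosomal protein genes (21.2%, 13.8 to 31.01) and 8 of 67 replication-dependent histone genes (11.9%, 6.18 to 21.8). The histone genes have a median of 1 TSS, and genes with that makeup had a member in 9.51%. No cell type is marked in this bulk tissue, and which cells make the tagged PARIS is not known here. Fewer cells of a type, less tagged PARIS in them and less signal per cell therefore cannot be told apart.

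The height of the highest member per gene is given as a description, since no difference between lists was tested. Over all protein-coding genes with a member its median maximum signal was 123. It was 250 for the immediate early genes, 174 for the excitatory neuron markers, 149 for the glutamate receptors, 132.5 for the ribosomal proteins and 89 for the respiratory chain. For the release genes it was 128, for interneuron markers 127, for microglia 131, for oligodendrocytes 118 and for histones 86. Bdnf, the neurotrophin with several activity-dependent promoters, had a peak of 535 (chromosome 2, 109676823 to 109678338) at 271 bp from a TSS 2332 bp inside the annotated gene. Npas4, an activity-induced transcription factor, had 349 at 19 bp and Homer1, a postsynaptic scaffold, 290 at 5 bp. In the excitatory neuron list Nrgn, a calmodulin-binding protein, had 362, Rbfox3 268 and Slc17a7, the vesicular glutamate transporter, 228. Grin1, the shared subunit of NMDA receptors, had 224, Gria1 217 and Grm4 215. Of the release genes, Unc13a, which primes vesicles, had 432 (chromosome 8, 71670216 to 71671856), and Syp, a vesicle membrane protein, 227. The highest ribosomal peaks were those of Rpl38 (333), Rps19 (236) and Rpl18 (209), and the highest of the respiratory chain those of Cyc1 (161), Ndufa4 (156) and Atp5j (155). Markers of other cells reached 162 (Gad1, which makes GABA), 157 (Mbp, of myelin) and 156 (Trem2, a microglial receptor). The Gad1 peak had a constant height over 137 bp. The assigned TSSs of Gad1, Gria1 and Grm4 lay 13305, 165131 and 7997 bp past the gene's 5′-most one. Those of Homer1, Rpl18 and Syp lay 4467, 4698 and 1290 bp past it.

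Of 9 genes linked to PARIS or to the name of the transgene, 3 had a member (33.3%, 12.1 to 64.6), beside 21.5% of all protein-coding genes. Zfp746, the gene of PARIS itself, had a member of 1089 bp over its TSS (chromosome 6, 48085862 to 48086950), with the highest point of 166 in the first intron at 639 bp. Its total signal was 0.175 of maximum signal times width, so the coverage was concentrated in a small part of it. Camk2a had a constant-height peak of 105 over 163 bp at 366 bp. Mdm4, an inhibitor of p53, had a constant-height peak of 72 over 599 bp, 624 bp past a TSS that lies 5231 bp inside the gene. Ppargc1a, Pck1, G6pc, Igfbp1, Tkt and Nrf1 had 0 members.

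**Figure D5:**
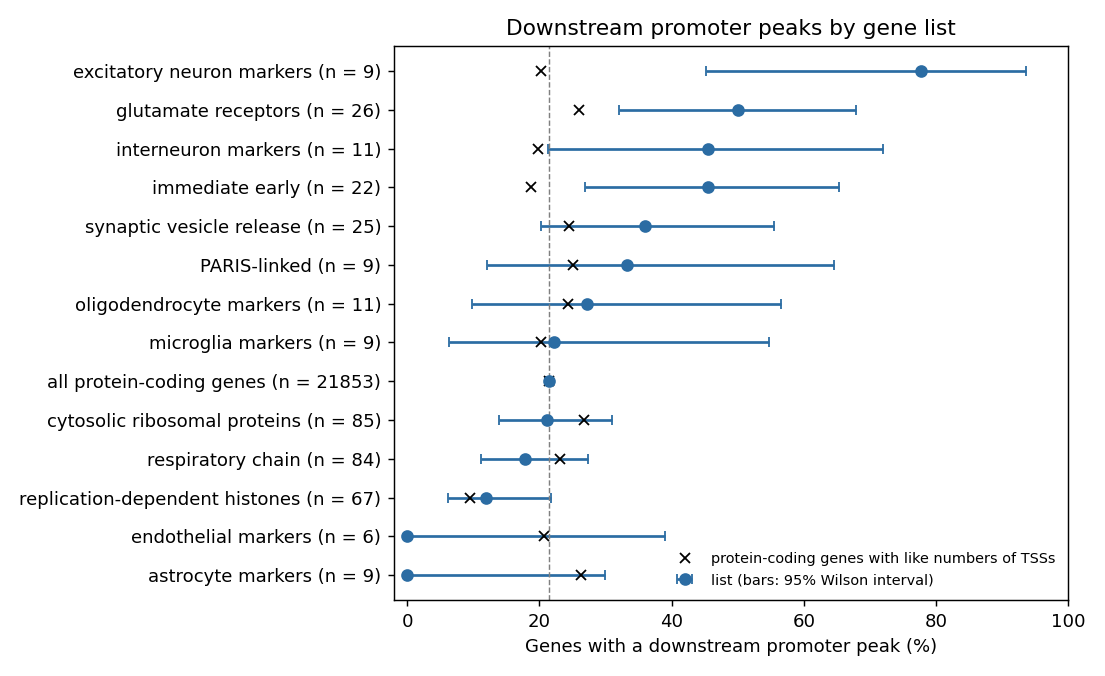
Percentage of genes with at least 1 downstream promoter peak in each gene list (points, bars show 95% Wilson intervals), with crosses for protein-coding genes of like TSS numbers and a dashed line at 21.5%, the share over all protein-coding genes. The excitatory neuron markers are at 77.8%, and the astrocyte and endothelial markers at 0.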

How the data were processed

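Per the labels' protocols, paired-end reads were trimmed and mapped on mm10 by Bowtie2, reads of low quality and duplicates were dropped, and SEACR called the peaks with IgG as control. Versions, SEACR mode and stringency are not given in the sources used here. The deposited peak list holds each peak's total and maximum signal, in whole numbers with no stated scaling. The tool and transcript set behind the authors' deposited annotation table are not given in the sources used here. Its signed TSS distance, in bp, is taken from the region of maximum signal, and the total signal in both tables was equal for all 99782 annotated peaks. The labels name 2 libraries, and values of the IgG one were not used here.

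Peaks were placed on GENCODE M21, and sequence was read from GRCm38.p6 with pysam 0.24.0. All peaks on the 21 chromosomes lay within their lengths. Shares carry Wilson, differences of shares Newcombe, medians order-statistic and differences of means normal 95% intervals, computed in Python 3.11.15 and tested on simulated data. Reference motif windows were centred 250 bp to either side of the outermost start of each protein-coding gene. Constant height means a ratio of at least 0.99. The members, gene lists, motifs and constant-height rule were chosen with earlier results of these data known. The genes named are those of the 10 members highest in maximum and in total signal, those with the most members (all ties at 5 kept), the peaks on each side of the far distance limit (all 5 ties kept where the rule asked for 3) and the 3 highest of each list. Fcho1, Immt, Ing2, Pigp and the other genes with a printed sequence were taken by maximum signal among members that meet the sequence rule. A few items that these rules select are not reported here.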

Additional observations from a re-analysis of the deposited data

How the results depend on the processing

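The 8 main results were recomputed under 60 alternatives; 35 left the value within its interval, or the number of members within 1.5 times 6061, and 25 moved it. None changed the sign of a difference whose interval excluded 0; the difference in the insulin response sequence, whose intervals all crossed 0, was 0.318 points (-0.551 to 1.18) without soft-masked windows. The restriction to 5′-most TSSs was chosen after seeing the data. Among peaks above the median maximum signal there were 3659 members, 48.4% of off-TSS promoter peaks were downstream, 41.7% of members covered a TSS of any gene (31.0% in the full set) and 13.9% of protein-coding genes had a member. Among peaks in the top 10% by maximum signal the values were 1192, 43.5%, 67.2% and 4.86%, the difference in constant height from upstream peaks was 0.0839 points (-0.173 to 0.474) and the GC difference 0.624 points (-0.0677 to 1.32), intervals that cross 0. Without constant-height peaks they were 3308, 47.6%, 55.3% and 12.8%. With distances from 1 to 500 bp they were 3939, 46.5%, 43.7% and 15.2%, and the GC difference was 1.57 points. Peaks at least 200 bp wide covered a TSS in 38.2% and gave 18.02% of genes. Protein-coding transcripts only, placed by the centre of the highest region, gave a downstream share of 50.5%, and 5′-most TSSs only gave 41.4%. A TSS at least 100 bp inside the peak was found in 23.2% of members, and the TSS of the assigned transcript in 29.1%. Stricter subsets hold fewer peaks by construction; otherwise the cause was not tested. The sequencing depth is unknown. No paired analysis was possible because each antibody has 1 library.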
